A study of Danio rerio with 5 samples.

Results

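The genes described here are named for work in the nucleolus, where ribosomes are made. They were chosen by name: every row of the 5 deposited tables whose name starts with nop, noc, nol, utp or rrp and a digit, or with polr1 and a digit or letter, without nol3 and nol4, and 13 further genes (fbl, npm1a, ncl, dkc1, gar1, nhp2, bop1, pes, wdr12, rrs1, gnl3, imp3 and imp4). Upper- and lower-case names were treated alike, which takes in NOP9, NOP14, RRP8, UTP14C and UTP20. This gave 52 of the 31540 genes in the tables, of which 51 had enough reads to be tested and nol4la did not. The samples are zebrafish caudal fin tissue that the labels call regenerated: 3 libraries with the treatment label 24h and 2 with the label Control, in a series that sets 1 day against 3 days after fin amputation. The labels give no genotype, strain, age or sex, do not say how the Control fins were handled and do not say whether the libraries come from separate fish, so the comparison is simply 24h against Control, and its p-values rest on a spread between libraries that may be technical.

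In the nucleolus, RNA polymerase I transcribes the ribosomal RNA genes into a long precursor. Small nucleolar RNAs (snoRNAs), held in protein complexes of the box C/D and box H/ACA kinds, guide its methylation and pseudouridylation. The small-subunit processome folds and cuts the part that becomes 18S rRNA, and other assembly factors process the parts that become 28S and 5.8S rRNA and join them with ribosomal proteins. Demand for new ribosomes is high in growing and dividing cells, and in the regenerating fin many cells of the blastema, the progenitors under the wound epidermis, divide.

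About as many nucleolar genes were higher in the 24h libraries than in Control as did not pass the test, and none were lower. Here and below, rose and fell mean called higher or lower in 24h than in Control. They do not mean a change over time, since the labels do not place the Control fins in time. Of 51 tested, 26 rose and 0 fell in edgeR's quasi-likelihood test at a Benjamini-Hochberg adjusted p under 0.05, against 9.43% of all 19034 genes called higher; 0 were lower at an unadjusted p under 0.05, and DESeq2 and limma also called 0 lower. Their median log2 fold change was 0.55, a 1.46-fold difference, beside -0.0043 over all genes, and each functional class had a median of 0.53 or more. Every 24h library lay above both Control libraries for 45 of the 51 genes, against 27.7% of all genes, and below both for 1, against 29.1%. The only tested gene below 0 was nol4lb, one of 2 nol4-like genes that the name rule takes in and that are not known as ribosome biogenesis genes: it had 0.587, 0.762 and 0.844 CPM in the 24h libraries, against 0.950 and 0.857 in Control, a log2 fold change of -0.31, adjusted p = 0.59. Its copy nol4la, too low for the test, had 0.391, 0.296 and 0.454 CPM in the 24h libraries, against 0.475 and 0.659 in Control. The other 50 genes were all on the higher side.

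**Figure D1:**
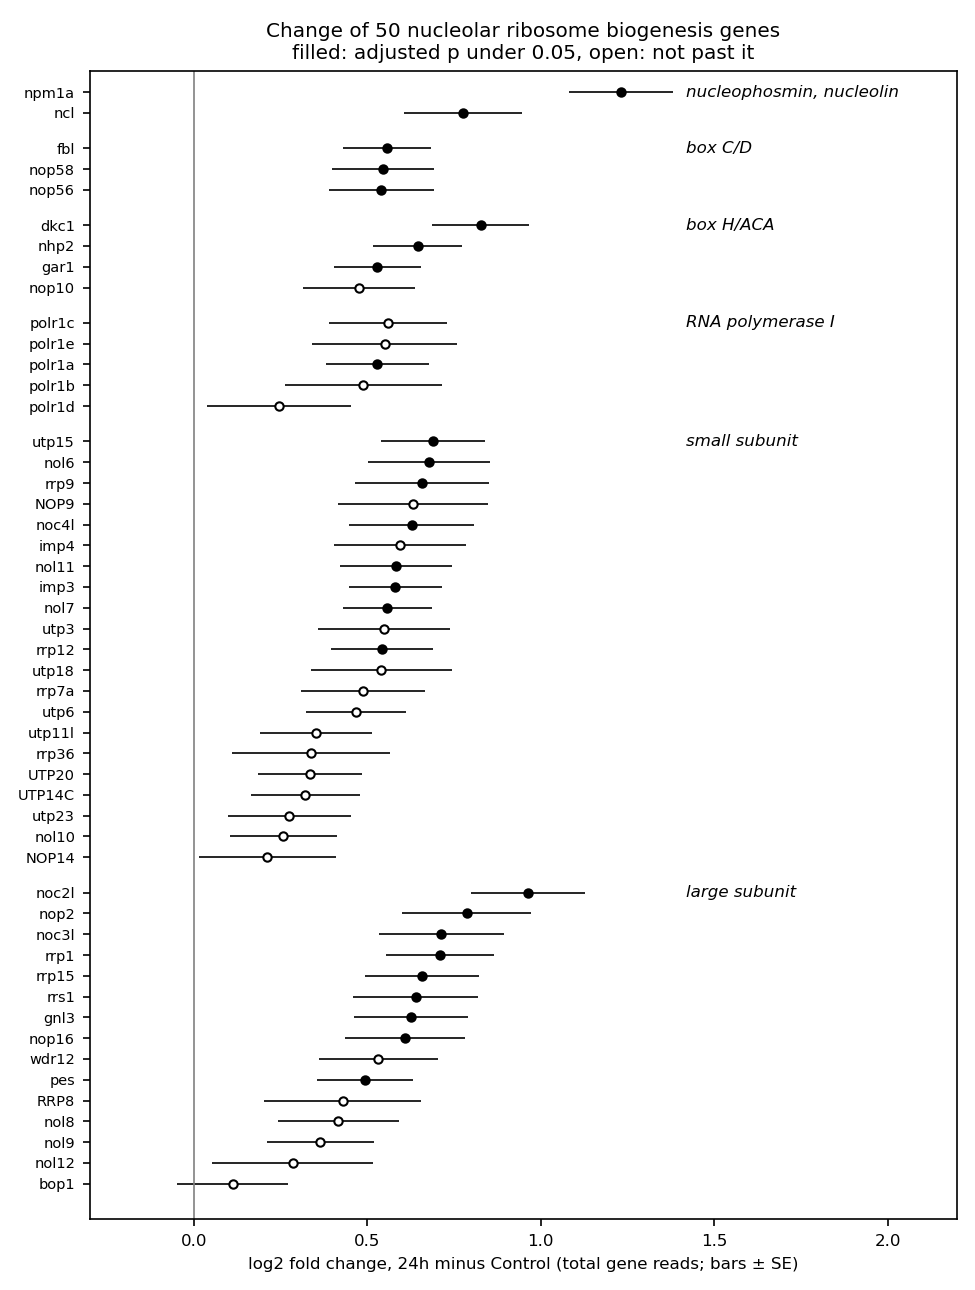
Log2 fold change (24h minus Control, x axis) of total gene reads for 50 nucleolar genes grouped by role, with bars of ± 1 SE; filled points passed the adjusted threshold and open points did not. All 50 points lie right of 0, from 0.11 for bop1 to 1.23 for npm1a.

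The calls depended on single libraries. Without Control replicate 1 only npm1a passed, 1 gene where 2.14% of all genes were called higher; without Control replicate 2 npm1a, dkc1 and noc2l passed, against 3.14%; without 24h replicate 2 they passed with ncl, nhp2 and imp3, 6 in all, against 5.70%. The median log2 fold change lay between 0.45 and 0.62 when any 1 library was left out. Among the 24h libraries replicate 2 stood highest, with the highest value of the 3 for 44 of the 51 genes. The share of all genes with this order was not counted, so nothing particular to the nucleolar genes is read from it. Set against the mean of the Control libraries, the median log2 level of the genes was 0.38, 0.71 and 0.46 in 24h replicates 1, 2 and 3, and -0.06 and 0.06 in Control replicates 1 and 2. The Control values mirror each other by construction, since their own mean is the reference.

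The libraries held 14958600 to 22341452 gene reads in the 24h group and 15448344 and 18887167 in the Control group. Values are given as CPM, reads scaled to library size with TMM factors, and, where genes are compared with each other, as the authors' TPM, which are also divided by exon length. A value in parentheses after a gene is its log2 fold change, with the adjusted p of edgeR where one is given. In RNA from fin tissue, fewer cells of a type and less RNA per cell cannot be told apart. Many marker genes of other cell types differed strongly between the groups. The counts of markers called stand beside 9.43% of all genes called higher and 14.8% called lower. Of 10 osteoblast markers 7 were lower, with a summed level of 171 to 225 CPM in 24h and 11364 to 11577 in Control. All 7 melanophore markers were lower (4.16 to 6.52 CPM in 24h and 195 to 214 in Control), as were 5 of 8 endothelial markers, 7 of them tested (16.9 to 19.9 CPM in 24h and 121 to 128 in Control), and 4 of 8 macrophage markers (942 to 2546 CPM in 24h and 2191 to 2541 in Control). Of 8 epidermal markers 4 were higher and 2 lower (29239 to 38092 CPM in 24h and 34018 to 38832 in Control), and of 9 blastema markers 5 were higher and 2 lower (1675 to 2128 CPM in 24h and 7641 to 7897 in Control). Some sums rest on the 2 most abundant genes of a list, a split made after seeing the data. Without and1 and and2, which were lower, the other 7 blastema markers summed to 1222 to 1518 CPM in 24h and 335 to 426 in Control, the opposite direction. Without krt4 and krt5 the epidermal sum was 2934 to 3942 CPM in 24h and 2497 to 2826 in Control, and without cd74a and cd74b the macrophage sum was 212 to 274 CPM in 24h and 406 to 418 in Control. The osteoblast, melanophore and endothelial sums stayed lower in 24h without their 2 most abundant genes. No marker of these lists was at 0 in either group, and the part of cell composition in the nucleolar genes was not tested.

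The genes of the nucleolar proteins nucleophosmin and nucleolin had the highest mRNA levels of the group. The nucleophosmin gene npm1a, of a nucleolar chaperone that handles ribosomal proteins and histones, had 337, 429 and 359.6 CPM in the 24h libraries, against 157 and 163 in Control. Every 24h library was higher than either Control library. Its log2 fold change was 1.23 ± 0.15 (SE, edgeR adjusted p = 0.0013), the largest of the 51 and the only one of 2-fold or more, a size that 3.63% of all genes reached in this direction with a call. It lies on chromosome 10 from 22065025 to 22075667 (GRCz10). Of its reads 77.7% were unique to it, and on unique reads its log2 fold change was 1.12 (edgeR adjusted p = 0.0016). It was the only nucleolar gene to pass in all 15 alternatives tried. Its duplicate npm1b had 32.3, 30.5 and 32.1 CPM in the 24h libraries, against 32.4 and 34.2 in Control, a log2 fold change of -0.07, adjusted p = 0.70. The related npm3 was at 0.12, adjusted p = 0.55. The difference between these copies was not itself tested.

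Nucleolin, an RNA-binding protein that acts in polymerase I transcription and early rRNA processing, is encoded by ncl on chromosome 22 from 36704303 to 36721742. It had 477, 611 and 440.02 CPM in the 24h libraries, against 295 and 299.995 in Control. The groups did not overlap, and 24h replicate 2 stood out above the other 2. The log2 fold change was 0.78 ± 0.17 (SE, edgeR adjusted p = 0.017). Per length, npm1a averaged 417 ± 79.9 TPM (SD, n = 3) in 24h and 181 ± 5.05 (SD, n = 2) in Control, and ncl averaged 312 ± 67.8 TPM (SD, n = 3) in 24h and 186 ± 2.55 (SD, n = 2) in Control. These genes held the first and second place among the 52 in both groups, ncl first in Control. Together they took 33.4%, 34.0% and 31.3% of all nucleolar gene reads in the 24h libraries, against 27.6% and 26.8% in the Control libraries.

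**Figure D2:**
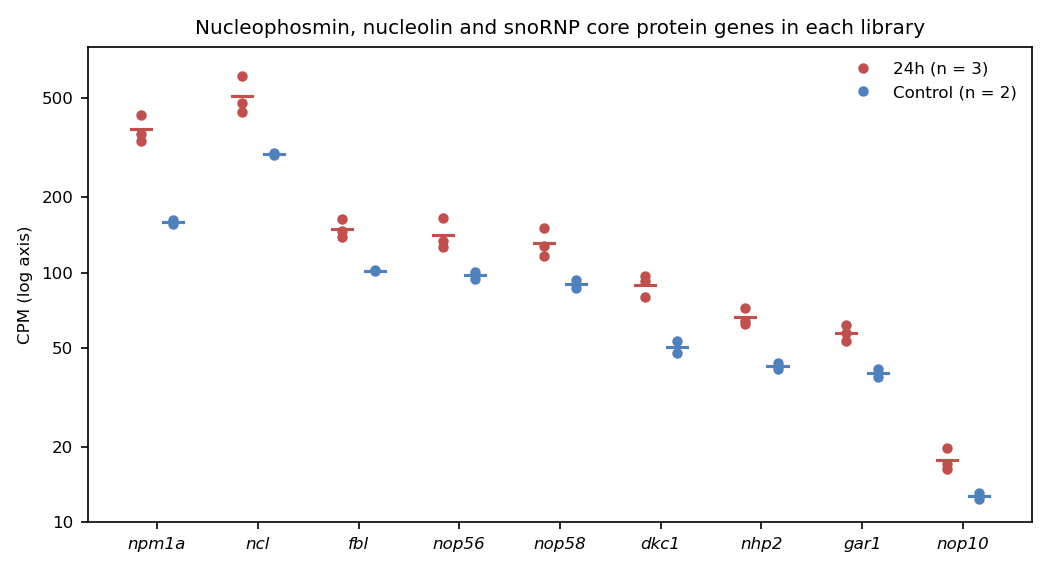
CPM on a log axis in each 24h library (red, n = 3) and each Control library (blue, n = 2). The genes are npm1a, ncl and, among the genes chosen here, those of core proteins of the box C/D and box H/ACA snoRNPs. Short lines are group means. In all 9 genes every 24h point lies above both Control points, as in 27.7% of all genes tested. Of the 9, nop10 did not pass the test.

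All 3 box C/D genes among those chosen here rose, where 9.43% of all genes were called higher. Fibrillarin, the methyltransferase of these snoRNPs, is encoded by fbl on chromosome 16 from 42227627 to 42236061, which had 147, 164 and 139 CPM in the 24h libraries, against 102 and 102 in Control, a log2 fold change of 0.56 ± 0.13 (SE, edgeR adjusted p = 0.019). The scaffold gene nop58 had 117, 151 and 127 CPM in the 24h libraries, against 86.8 and 93.8 in Control, a log2 fold change of 0.55 ± 0.15 (SE, edgeR adjusted p = 0.035). Its partner nop56 had 127, 165 and 133 CPM in the 24h libraries, against 94.2 and 101 in Control, at a log2 fold change of 0.54 ± 0.15 (SE). The 3 fold changes differed by less than the SE of any of them. Per length, fbl was the highest of them at 228 ± 29.7 TPM (SD, n = 3) in 24h and 158 ± 1.31 (SD, n = 2) in Control, while nop58 at 99.97 ± 23.3 TPM (SD, n = 3) in 24h and 67.7 ± 4.16 (SD, n = 2) in Control and nop56 at 88.5 ± 15.7 TPM (SD, n = 3) in 24h and 61.1 ± 3.95 (SD, n = 2) in Control lay within a SD of each other in 24h. Of the reads of nop58 78.6% were unique to it, and of fbl 85.3%; both passed on unique reads as well.

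The box H/ACA genes encode dyskerin, the pseudouridine synthase, and its partners Nhp2, Gar1 and Nop10, a set that also belongs to telomerase. Dyskerin's gene dkc1, on chromosome 21 from 43706834 to 43721295, had 79.7, 96.6 and 92.2 CPM in the 24h libraries, against 47.5 and 53.5 in Control, a log2 fold change of 0.83 ± 0.14 (SE, edgeR adjusted p = 0.0057). It kept the call in 14 of 15 alternatives and missed it without Control replicate 1 (adjusted p = 0.070). The gene nhp2 had 62.0, 72.4 and 64.0 CPM in the 24h libraries, against 43.5 and 41.1 in Control, at a log2 fold change of 0.65 ± 0.13 (SE, edgeR adjusted p = 0.011). The levels of gar1 were 57.3, 61.4 and 53.4 CPM in the 24h libraries, against 38.3 and 41.2 in Control, at a log2 fold change of 0.53 ± 0.13 (SE, edgeR adjusted p = 0.022). The fourth gene, nop10, had 17.1, 19.8 and 16.3 CPM in the 24h libraries, against 12.4 and 13.1 in Control, a log2 fold change of 0.48, adjusted p = 0.071, and did not pass although its groups did not overlap. Per length nhp2 led the 4 at 117 ± 16.5 TPM (SD, n = 3) in 24h and 76.8 ± 2.93 (SD, n = 2) in Control and gar1 was lowest at 52.8 ± 5.65 TPM (SD, n = 3) in 24h and 37.3 ± 1.93 (SD, n = 2) in Control.

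Many vertebrate snoRNAs sit in the introns of host genes, among them genes of this group. The tables hold 15 snoRNA gene models inside 5 of the 52 genes, 6 in dkc1, 3 in nop58 and 2 each in nop56, nop2 and ncl. All 15 had 0 reads in all libraries. Of the 193 models named SNORD or SNORA in the tables, 13 had any read, 199 reads in all. The libraries were made with an mRNA kit, and the levels of snoRNAs cannot be read from them.

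Of the 5 RNA polymerase I genes 1 rose, where 9.43% of all genes were called higher, and nothing is read from so small a count. The median over the 5 was 0.53 on the log2 scale. The gene of its largest, catalytic subunit, polr1a, on chromosome 14 from 15846073 to 15905331, had 35.9, 44.4 and 45.2 CPM in the 24h libraries, against 28.0 and 29.9995 in Control, a log2 fold change of 0.53 ± 0.15 (SE, edgeR adjusted p = 0.040). Its groups did not overlap. The gene polr1c, of a subunit that polymerase III also uses, had 14.9, 17.1 and 17.7 CPM in the 24h libraries, against 10.4 and 12.1 in Control, at a log2 fold change of 0.56 ± 0.17 (SE, edgeR adjusted p = 0.05001), just above the threshold. It passed on exon reads at 0.62 (adjusted p = 0.033) and on unique reads (adjusted p = 0.028), where 80.8% of its reads were unique. The other catalytic subunit gene, polr1b, had 9.73, 14.9 and 11.1 CPM in the 24h libraries, against 8.50 and 8.51 in Control, at a log2 fold change of 0.49, adjusted p = 0.16. A polymerase I-specific subunit gene, polr1e, had 11.3, 16.1 and 14.0 CPM in the 24h libraries, against 8.66 and 10.2 in Control, at a log2 fold change of 0.55, adjusted p = 0.097. For polr1d, the other subunit shared with polymerase III, the levels were 6.80, 7.54 and 7.27 CPM in the 24h libraries, against 5.38 and 6.79 in Control, at a log2 fold change of 0.25, adjusted p = 0.42. These were low counts, and 24h replicate 1 differed from Control replicate 2 by little. Further subunits that the tables carry under older names were tested as part of a list of other ribosome biogenesis genes: cd3eap was higher (0.87, adjusted p = 0.034), while znrd1 (0.75, adjusted p = 0.082) and twistnb (0.55, adjusted p = 0.17) did not pass. The initiation factor genes rrn3 (0.21, adjusted p = 0.32), ubtf (0.08, adjusted p = 0.65) and ubtfl (-0.14, adjusted p = 0.59) did not pass.

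Of 21 genes of the small-subunit processome and 18S rRNA maturation, 8 rose and 13 did not pass, where 9.43% of all genes were called higher. The median was 0.54 on the log2 scale. The smallest p belonged to utp15, of the complex that binds the rRNA precursor first, with 23.2, 25.7 and 22.4 CPM in the 24h libraries, against 13.8 and 15.8 in Control. Its log2 fold change was 0.69 ± 0.15 (SE, edgeR adjusted p = 0.016). It lies on chromosome 18 from 7078387 to 7097798. Next came nol7, on chromosome 2 from 31846965 to 31850129, with 36.5, 39.8 and 34.5 CPM in the 24h libraries, against 25.2 and 24.9 in Control. Its log2 fold change was 0.56 ± 0.13 (SE, edgeR adjusted p = 0.020). In both the lowest 24h library stood well clear of the higher Control library. The other 6 that rose were imp3 (0.58), which joins the U3 snoRNA to the precursor, nol6 (0.68), rrp12 (0.54), a factor of small-subunit export, nol11 (0.58), noc4l (0.63) and rrp9 (0.66), a U3-binding protein. Of the reads of noc4l 55.9% were unique to it, and it overlaps phpt1 on the same strand; on unique reads it was at 0.76 (edgeR adjusted p = 0.030).

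Among the 13 that did not pass, 6 had a log2 fold change over 0.4. NOP9 had 9.54, 13.6 and 12.1 CPM in 24h and 7.07 and 8.11 in Control (0.63, adjusted p = 0.073). The imp3 partner imp4 had 15.1, 20.4 and 16.5 CPM in 24h and 10.7 and 12.3 in Control (0.59, adjusted p = 0.060). For utp3 the values were 17.9, 24.9 and 18.5 CPM in 24h and 13.8 and 14.2 in Control (0.55, adjusted p = 0.075). For utp18 they were 14.8, 19.5 and 17.9 CPM in 24h and 13.7 and 10.2 in Control (0.54, adjusted p = 0.095). In each of these 4 the groups did not overlap, nor did they in rrp7a and utp6. Every 24h library lay above both Control libraries in 27.7% of all genes, so nothing is read from this. The gene rrp7a had 14.3, 14.4 and 11.8 CPM in 24h and 9.24 and 10.02 in Control (0.49, adjusted p = 0.088), in a gene body that overlaps srebf2 on the same strand. The gene utp6 had 24.5, 27.8 and 23.6 CPM in 24h and 17.7 and 18.9 in Control (0.47, adjusted p = 0.054) and passed on exon reads at 0.48 (adjusted p = 0.048).

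The remaining 7 small-subunit genes had smaller values. UTP20, of one of the longest processome proteins, had 37.7, 46.8 and 43.0 CPM in 24h and 30.6 and 36.8 in Control (0.34, adjusted p = 0.15). Levels of utp11l were 16.4, 19.8 and 19.9 CPM in 24h and 14.1 and 15.2 in Control (0.35, adjusted p = 0.15). UTP14C, of a helicase cofactor family, had 29.2, 37.2 and 38.2 CPM in 24h and 28.8 and 27.0 in Control (0.32, adjusted p = 0.18). For these 3 the lowest 24h library lay close above the higher Control library. The gene utp23 had 9.39, 9.02 and 8.76 CPM in 24h and 7.71 and 7.25 in Control (0.28, adjusted p = 0.30). Those whose groups overlapped were rrp36 with 9.78, 13.8 and 11.9 CPM in 24h and 7.97 and 10.8 in Control (0.34, adjusted p = 0.32), nol10 with 25.7, 33.0 and 30.6 CPM in 24h and 23.8 and 26.0 in Control (0.26, adjusted p = 0.26) and NOP14, of the partner of Noc4l, with 14.6, 19.98 and 18.6 CPM in 24h and 13.6 and 17.1 in Control (0.21, adjusted p = 0.46).

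Of 15 genes of large-subunit assembly, 9 rose and 6 did not pass, where 9.43% of all genes were called higher. The median was 0.61 on the log2 scale. The smallest p belonged to noc2l, on chromosome 23 from 23199579 to 23252866, whose yeast counterpart escorts early large-subunit particles. It had 37.7, 51.5 and 46.3 CPM in the 24h libraries, against 22.9 and 23.4 in Control, a log2 fold change of 0.96 ± 0.16 (SE, edgeR adjusted p = 0.0059), and missed the call only without Control replicate 1 (adjusted p = 0.057) among the 15 alternatives. The gene noc3l, counterpart of a partner of that yeast protein but not the only partner, was higher too (0.71). The gene rrp1, on chromosome 9 from 188606 to 197253, had 24.7, 30.2 and 25.1 CPM in the 24h libraries, against 15.6 and 17.1 in Control, at a log2 fold change of 0.71 ± 0.16 (SE, edgeR adjusted p = 0.017). The other risers were nop2 (0.79), a methyltransferase of 28S rRNA, rrp15 (0.66), rrs1 (0.64), gnl3 (0.63), which encodes nucleostemin, nop16 (0.61) and pes (0.49). Of the relatives of gnl3, gnl3l was higher (0.70, adjusted p = 0.013) and gnl2 was at 0.06, adjusted p = 0.82; the difference was not tested.

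The 5 others that did not pass, beside bop1, were all on the higher side. The gene wdr12 had 19.0, 23.9 and 20.4 CPM in 24h and 13.4 and 15.9 in Control (0.53, adjusted p = 0.061) and passed on exon reads at 0.58 (adjusted p = 0.041). Levels of nol8 were 12.8, 16.2 and 14.7 CPM in 24h and 10.8 and 11.1 in Control (0.42, adjusted p = 0.13). The gene nol9, of a polynucleotide kinase that acts on the large-subunit precursor, had 23.5, 29.6 and 25.7 CPM in 24h and 21.4 and 19.4 in Control (0.37, adjusted p = 0.13). In these 3 the groups did not overlap, a separation in the same direction that 27.7% of all genes showed. RRP8, a methyltransferase gene, had 10.9, 16.3 and 11.8 CPM in 24h and 8.97 and 10.4 in Control (0.43, adjusted p = 0.21). Its groups did not overlap either. The values of nol12 were 7.63, 11.3 and 9.35 CPM in 24h and 6.91 and 8.57 in Control (0.29, adjusted p = 0.41), and here the groups overlapped.

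The gene bop1 gave different answers by the kind of read counted. It encodes a core protein of the PeBoW complex, with the products of pes and wdr12, which is needed to process the 28S and 5.8S precursor. On total reads it had 28.7, 36.0 and 33.6 CPM in the 24h libraries, against 27.1 and 33.6 in Control, with groups that overlap (0.11, adjusted p = 0.64). On exon reads alone it had 564, 814 and 490 reads in 24h and 327 and 317 in Control, a difference of 0.72 (adjusted p = 0.016), beside 0.51 (adjusted p = 0.034) for pes and 0.58 (adjusted p = 0.041) for wdr12. Its intron reads went the other way, with 23, 36 and 28 reads in 24h and 187 and 192 in Control, a difference of -2.96 (adjusted p = 0.00055) on the log2 scale. Intron reads were 4.45% of its reads in 24h and 37.0% in Control. Reads unique to bop1 were 390 of 514 and 362 of 509 in the Control libraries. They were 577 of 587 and 845 of 850 in 24h replicates 1 and 2, and nearly all of 518 in replicate 3. Every 24h library thus had more unique reads than either Control library, the direction of the exon reads. Many Control reads were therefore not unique to bop1, and how many of these were intron reads was not tested. The gene body spans chromosome 19 from 2989234 to 3115337 on the minus strand, and the model of scxa lies within it on the plus strand, from 3060575 to 3068672. That gene encodes scleraxis, a transcription factor of tendon cells, and had 3, 2 and 6 reads in the 24h libraries, against 59 and 63 in the Control libraries. The exon call of bop1 was lost without 24h replicate 2 (adjusted p = 0.055) and without Control replicate 1 (adjusted p = 0.15). The part of transcription across scxa in the intron reads of bop1 was not tested.

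**Figure D3:**
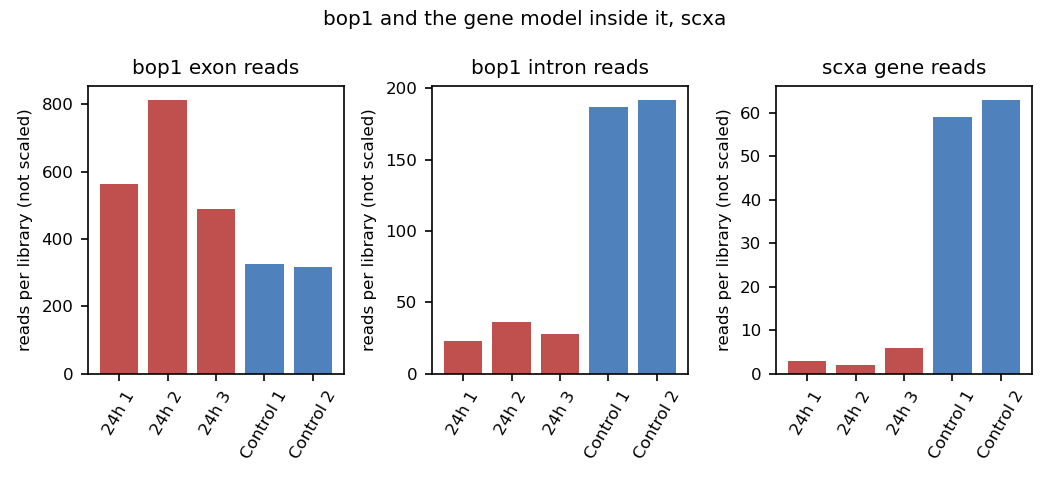
Reads per library, not scaled for depth, for bop1 exons (left), bop1 introns (middle) and the gene scxa inside bop1 on the other strand (right); red bars are 24h and blue bars Control libraries. Exon reads of bop1 are highest in 24h, at 490 to 814, while its intron reads and the scxa reads are highest in Control.

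Counted on exon reads, 30 of 50 nucleolar genes tested were higher and 0 lower in edgeR, with all 50 log2 fold changes above 0, against 10.1% of all 17473 genes called higher; the median was 0.58 on the log2 scale. All 26 genes called on total reads were called again, and the 4 added were bop1, wdr12, utp6 and polr1c. The count of 30 was 2 of 50 without Control replicate 1, against 2.30% of all genes. It was 7 without Control replicate 2, against 3.42%, and 8 without 24h replicate 2, against 5.78%. Without 24h replicate 1 it was 30, against 7.71%, and without 24h replicate 3 it was 25, against 9.90%. With all 5 libraries the 3 PeBoW genes were all past the exon test.

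Intron reads, which come largely from unspliced RNA, were few: a median of 2.94% of a gene's reads in 24h and 3.40% in Control. Of 35 functional members with enough intron reads, and nol4lb, 0 were higher past the edgeR test. Of all 13277 genes, 2.16% were called higher (6.93% in either direction). At an unadjusted p under 0.05 in edgeR 5 were higher (nhp2, npm1a, noc3l, dkc1 and ncl). The share of all genes at that unadjusted cut was not counted, so nothing is read from these 5. No other tool was run on intron reads. The median intron log2 fold change of the 36 was 0.22, with 26 above 0. The call was the fall of bop1, where 4.77% of all genes were called lower; without 24h replicate 1 there were 3 calls. Among npm1a, ncl and dkc1 the intron log2 fold changes were 0.88 (adjusted p = 0.15), 1.48 (adjusted p = 0.22) and 0.92 (adjusted p = 0.21). The value of ncl rests on 7, 19 and 10 intron reads in the 24h libraries and 3 and 4 in Control. The test of exon against intron change in the same libraries called bop1 alone of 35 genes, by 3.65 ± 0.28 (SE, edgeR adjusted p = 0.00020), against 0.245% of all 12221 genes called in that direction and 1.17% in either. Next by p were rrp12 (1.38, adjusted p = 0.20) and noc2l (1.30, adjusted p = 0.20), which had 4 to 12 and 14 to 22 intron reads per library.

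The genes that rose had a higher median level. Genes with more reads pass a count test more easily at the same fold change, so nothing is read from this. The median of the mean level was 36.5 CPM in the 26 that passed and 15.1 CPM in the 24 functional members that did not. The log2 fold changes of the 2 sets ran from 0.49 to 1.23 and from 0.11 to 0.63, so that they overlap. Across the 50 genes, which share libraries and are not independent, the log2 level and the log2 fold change had a Pearson r of 0.51 and a Spearman rho of 0.40, and an r of 0.34 without npm1a and ncl. The level averages all libraries, with the 24h libraries among them, so part of this relation is built in. Per length the levels ran from 417 ± 79.9 TPM (SD, n = 3) in 24h and 181 ± 5.05 (SD, n = 2) in Control for npm1a down to 6.95 ± 1.89 TPM (SD, n = 3) in 24h and 4.80 ± 0.154 (SD, n = 2) in Control for polr1b. The order by TPM was much alike in both groups: npm1a, ncl, fbl, nhp2 and nop58 held the first 5 places in each. In 24h, neighbours from nol7 in place 8 to nop10 in place 12, at 67.9 to 65.1 TPM, differed by less than their SD.

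Other genes of the same process, on a list of factors outside the name rule, were measured alike. Of 108 tested, 27 rose and 0 fell in edgeR, against 9.43% of all genes called higher and 14.8% called lower. At an unadjusted p under 0.05 in edgeR 0 were lower, and DESeq2 and limma called 0 lower. The median was 0.41 on the log2 scale. The count was 3 without 24h replicate 2, against 5.70% of all genes called higher. It was lower still without either Control library, fits that leave that group with 1 library. The smallest p values were those of gnl3l and pwp2h (0.71, adjusted p = 0.014), a processome gene. The scaffold gene nolc1, which binds snoRNPs, was higher (0.58, adjusted p = 0.029), and so was cirh1a (0.73, adjusted p = 0.030), now also known as UTP4. Below 0 were gltscr2 (-0.17, adjusted p = 0.38), also known as nop53, and 11 others, none past the test. Of 15 genes of the RNA exosome, which trims rRNA precursors, and its cofactors, 2 were higher, exosc9 (0.66, adjusted p = 0.029) and exosc10 (0.48, adjusted p = 0.035), and 0 lower, with 1 lower at an unadjusted p under 0.05 and 0 in DESeq2 and limma. Those 2 of 15 stand beside 9.43% of all genes called higher. The count was 4 on exon reads, against 10.1% of all genes, and 0 without 24h replicate 2, against 5.70%. Without 24h replicate 3, 1 gene was called lower. Fits without a Control library leave that group with 1 library, and their counts are not given. Nothing is read from counts over so few genes.

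**Figure D4:**
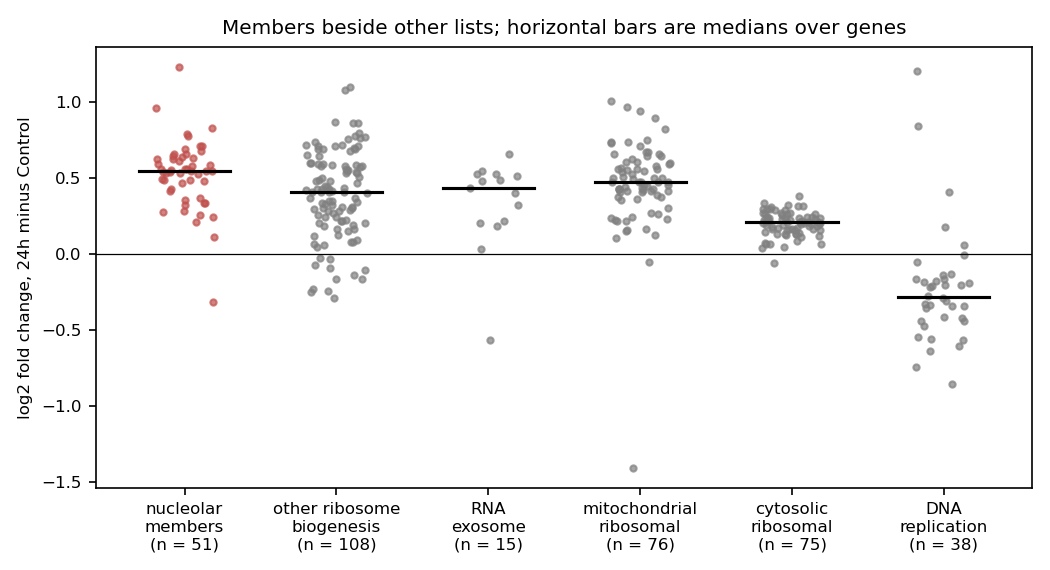
Log2 fold change (24h minus Control) of each tested gene in 6 lists, with a bar at the median of each list. Medians are 0.55 for the nucleolar members, 0.41 for other ribosome biogenesis genes, 0.43 for the RNA exosome, 0.47 for mitochondrial and 0.21 for cytosolic ribosomal proteins, and -0.29 for DNA replication.

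The ribosomal proteins are the parts that the nucleolar factors assemble. The counts of these lists stand beside 9.43% of all genes called higher and 14.8% called lower. Of 75 cytosolic ribosomal protein genes 0 rose and 0 fell in edgeR, DESeq2 or limma, and 0 had an unadjusted p under 0.05, while 74 lay on the higher side and the median was 0.21 on the log2 scale. Of 76 mitochondrial ribosomal protein genes 32 rose, with a median of 0.47, among them mrpl17 (0.94, adjusted p = 0.0068) and mrps28 (1.01, adjusted p = 0.0073). The count of 32 was 20 without 24h replicate 1, against 7.49% of all genes, and 7 without 24h replicate 2, against 5.70%. It was lower still without either Control library, fits that leave that group with 1 library. The 1 that fell on total reads, mrpl20 (-1.41, adjusted p = 0.00021), had TPM values, which use exon reads, of 32.8, 39.1 and 35.7 in 24h, against 23.6 and 26.0 in Control, which is the other direction (exon adjusted p = 0.044). Of 38 genes on a DNA replication list, which also holds mki67 and top2a, 2 rose and 2 fell and the median was -0.29. Lower were mcm4 (-0.86, adjusted p = 0.0071) and mcm6 (-0.75, adjusted p = 0.027), of the replicative helicase. Higher were cdc6 (0.84, adjusted p = 0.034) and gmnn (61.2, 61.9 and 54.8 CPM in 24h and 26.9 and 24.6 in Control, adjusted p = 0.00073). On exon reads neither cdc6 nor gmnn passed, with adjusted p = 0.12 for cdc6 and 0.95 for gmnn. Without 1 library the replication genes called higher numbered 1 to 2 and those called lower 0 to 3, with 0 lower without Control replicate 1 and 1 each way without Control replicate 2, 1 higher without 24h replicate 2 or Control replicate 1, and 1 lower without 24h replicate 1. These medians are set side by side and the differences between lists were not tested.

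The lists of regulators linked to ribosome production are read beside 9.43% of all genes called higher and 14.8% lower, and nothing is read from counts over so few genes. Myc is the transcription factor best known for driving these genes in vertebrates. Of 12 Myc family genes 2 rose and 2 fell. Among the Myc genes themselves, mych (-0.41, adjusted p = 0.093), mycn (0.51, adjusted p = 0.29) and mycla (0.28, adjusted p = 0.53) did not pass. The gene myca had 49.0, 57.3 and 35.2 CPM in the 24h libraries, against 27.9 and 34.5 in Control, a log2 fold change of 0.60, adjusted p = 0.091, while mycb was lower (-0.61, adjusted p = 0.046), with 19.9, 16.1 and 23.6 CPM in the 24h libraries, against 29.9 and 30.5 in Control. Of its antagonists, mxd1 (8.75, 9.95 and 10.3 CPM in 24h and 3.75 and 5.27 in Control, adjusted p = 0.014; exon adjusted p = 0.074) and mxi1 (0.63, adjusted p = 0.039) were higher and mxd3 (-0.98, adjusted p = 0.0089) lower. Of 17 mTOR pathway genes, a pathway that couples nutrients to ribosome production, rictorb (0.49, adjusted p = 0.048) was higher and eif4ebp3 (-1.12, adjusted p = 0.027) lower. Without Control replicate 1 they were 0 in both lists and both directions. Leaving out each other library gave 1 to 4 Myc family genes higher and 0 to 2 lower, and 0 to 1 mTOR genes higher and 0 to 3 lower, with the highest counts without 24h replicate 3 except for mTOR genes higher.

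**Figure D5:**
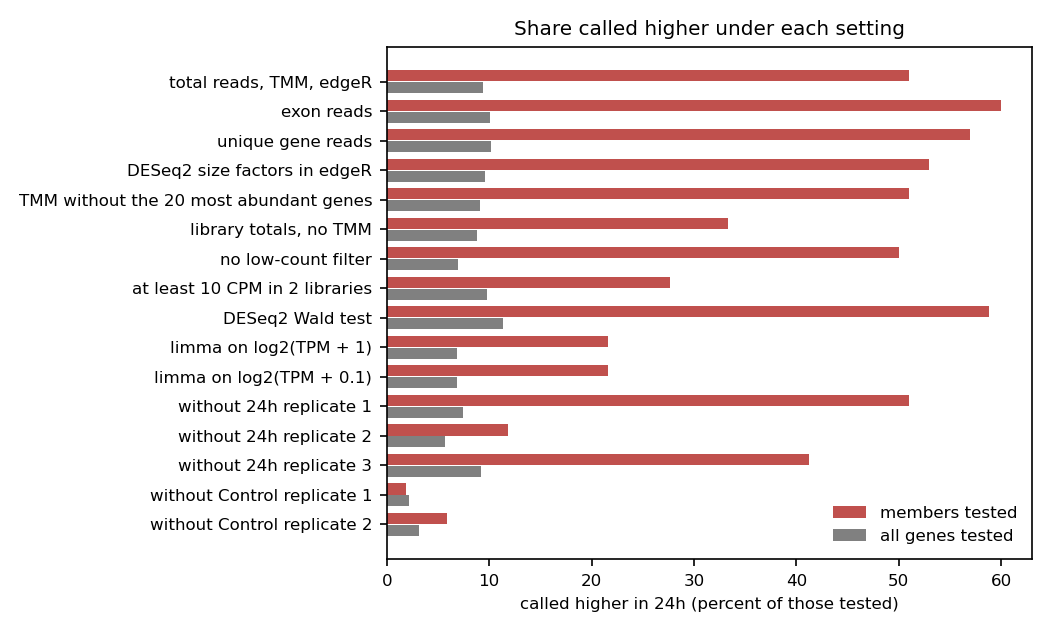
Percent of nucleolar genes tested (red) and of all genes tested (grey) that were called higher in 24h under each setting. The red bar exceeds the grey one in every setting except without Control replicate 1, where 1 of 52 genes was called.

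Under other settings all 26 calls remained with unique reads (29 called, background 10.2%), DESeq2's test (30, 11.3%), DESeq2 size factors (27, 9.60%), TMM without the 20 most abundant genes (26, 9.13%) and no low-count filter (26, 6.95%). Without 24h replicate 1, 23 of them remained among 26 calls (7.49%), and without 24h replicate 3, 21 (9.18%). With library totals and no TMM 17 remained (8.78%), and with at least 10 CPM in 2 libraries 13 (9.82%). With limma on log2(TPM + 1) 11 remained, against 6.89% of all genes, and the same 11 with a pseudocount of 0.1, against 6.90%. These were npm1a, ncl, fbl, dkc1, nhp2, noc2l, rrp1, rrp15, utp15, nol7 and imp3.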

How the data were processed

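RNA sequencing was deposited as 1 table per library, 3 labelled 24h and 2 labelled Control, numbered within each group in the order of deposit only to name them. Per the file headers, each deposited table holds whole-number read counts per gene (total, unique, exon and intron reads) and TPM values, which the authors scaled to one total per library after division by exon length. The labels' protocols name phenol extraction and a stranded kit for mRNA. GRCz10 is the build in the submitters' processing notes. No aligner, counter or strand setting is given in the sources used here, so reads of overlapping genes may not be told apart.

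From the counts, edgeR 4.0.16 was run with TMM scaling, filterByExpr, robust quasi-likelihood fits and Benjamini-Hochberg adjustment over all genes. SE is the log2 fold change over the square root of F and is approximate. Exon and intron reads of a library were also fitted together, with the library as a block. After filtering, 19034 genes stayed, and no library lost over 0.107% of its reads. PCR copies were not marked, so depth speaks of counting error only; the libraries held 14958600 to 22341452 gene reads. DESeq2 1.42.0 and limma 3.58.1, on log2(TPM + 1) and log2(TPM + 0.1), were alternatives, beside other scalings, filters and read kinds and leaving out each library. Members and lists were chosen with earlier results of these data known. Members were named by role; the 2 of each role with the smallest p, npm1a, dkc1, fbl and ncl and all that did not pass were given with the values of every library, and other lists by the 2 called genes with the smallest p in each direction. Other genes beyond this (npm1b, npm3, gnl2, nolc1, cirh1a, gltscr2, myca, mych, mycn, mycla, the polymerase subunits and initiation factors) were chosen after their values were seen. One further gene list is not reported here. Of the 52 genes, 22 overlap another gene model and 9 had under 95% unique reads.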

Additional observations from a re-analysis of the deposited data

How the results depend on the processing

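The median log2 fold change of the nucleolar genes kept its direction and moved by less than the spread between the 24h libraries (SD 0.17) in all 17 alternatives, from 0.45 to 0.62. The count of 26 genes called higher was less steady: 17 with library totals and no TMM, 13 with at least 10 CPM in 2 libraries, 11 with limma on either TPM scale, and 1 to 26 when 1 library was left out. Of the 108 other ribosome biogenesis genes tested, 27 were called higher, against 9.43% of all genes. The count was 15 with at least 10 CPM in 2 libraries, against 9.82% of all genes. It was 4 with limma on log2(TPM + 1), against 6.89%, and 5 on log2(TPM + 0.1), against 6.90%. Without 24h replicate 1 it was 34, against 7.49%. Without 24h replicate 2 it was 3, against 5.70%, and without 24h replicate 3 it was 20, against 9.18%. It was lower still without either Control library, fits that leave that group with 1 library. The 30 calls on exon reads ranged from 2 to 30 without 1 library. On intron reads the count was 1, or 1 to 3 without 1 library and 0 among genes that overlap no other gene model; the same 0 held for the exon against intron test, which otherwise called 1. On total reads bop1 ranged from -0.036 to 0.28 when 1 library was left out, turning negative without Control replicate 1 (adjusted p = 0.94). The causes were not tested, except that leaving out a Control library leaves that group with 1, whose spread is assumed to be that of the 24h group. Over all single genes and alternatives, 616 values kept direction and call, 128 lost the call, 15 gained it and 1 changed sign. Counting only names written in lower case, or leaving out nol4la and nol4lb, left the 26 calls at 26 and 26. None of the genes left out was among the 26, so these counts could not change. The lower-case setting was chosen after seeing the data. No paired analysis was possible because the labels give no replicate number shared by the groups; the numbers used here follow the order of the deposited samples and pair nothing. Few intron reads limit what that test can show.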

Other observations

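Some nucleolar genes lie near each other on GRCz10, and whether other genes lie between them was not examined. On chromosome 6, wdr12 spans 9394984 to 9410736 and nop58 spans 9428667 to 9459755, both on the minus strand, with log2 fold changes of 0.53 and 0.55. On chromosome 3, nol12 spans 1381699 to 1387384 and rrp7a 1450695 to 1453600, both on the plus strand and both overlapping the model of srebf2, with log2 fold changes of 0.29 and 0.49.

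Summed over its genes, each functional class was higher in every 24h library than in either Control library. Of all single genes tested, 27.7% lay this way. The sums weigh the most abundant genes of a class most, and their separation was not tested. The box C/D genes summed to 391, 481 and 399.5 CPM in the 24h libraries, against 283 and 297 in the Control libraries. The box H/ACA genes summed to 216, 250.3 and 226 CPM in the 24h libraries, against 142 and 149 in the Control libraries. The small-subunit genes summed to 506, 622 and 562 CPM in the 24h libraries, against 386 and 414 in the Control libraries. The large-subunit genes summed to 427, 565 and 473 CPM in the 24h libraries, against 313 and 338 in the Control libraries. The polymerase I genes summed to 78.6, 100.01 and 95.3 CPM in the 24h libraries, against 60.9 and 67.6 in the Control libraries.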
